A study of Homo sapiens with 6 samples.

Results

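The 9 genes described here encode TDP-43 (TARDBP) and 8 RNA-binding proteins linked to amyotrophic lateral sclerosis, related dementias or stress granules: EWSR1, TAF15, MATR3, TIA1, TIAL1, ATXN2, G3BP1 and G3BP2. They were taken by symbol from a list of related proteins drawn up with earlier results of these data known, and each has 1 row among the 27961 genes in the deposited count files. All 9 had enough reads to be tested, as did 16202 of those genes. RNA was sequenced from SH-SY5Y, an established line of human neuroblastoma cells that keep features of sympathetic neurons. The knockdown group carried TRCN0000016038, a short hairpin RNA against TARDBP. One control group carried the hairpin SHC007 (control hairpin 1) and the other carried SHC016 (control hairpin 2), and each of the 3 groups had 2 libraries. All groups shared the lentiviral infection by centrifugation with 8 µg/mL polybrene and the selection with 2 µg/mL puromycin that began after 48 hours and lasted 3 days, in cells grown with 10% serum. Each group rests on a single hairpin. Whether the 2 libraries of a group are separate cultures is not stated in the labels, so the p-values reflect only how far these libraries differ, and that spread may be technical.

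TDP-43 is a mostly nuclear protein that binds UG-rich RNA, represses the inclusion of cryptic exons and lowers its own mRNA by binding in its own 3′ UTR. EWSR1 and TAF15 belong to the FET family, which works in transcription and splicing, and MATR3 (matrin 3) is a nuclear matrix protein that regulates splicing. TIA1 and its paralogue TIAL1 (also called TIAR) repress translation of bound mRNAs and enter stress granules, the cytoplasmic bodies that gather untranslated mRNA when translation stalls. G3BP1 and its paralogue G3BP2 are the scaffold on which those granules form, and ATXN2 (ataxin-2) binds poly(A)-binding protein and modifies TDP-43 toxicity in model organisms.

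Since TDP-43 binds UG repeats, the members' own transcripts were searched for runs of at least 6 alternating T and G bases, on the transcript strand only, in the principal GENCODE v29 transcript of each gene (build GRCh38). The windows of 30 bases around the longest run of each member that has one are shown 5′ to 3′ on the transcript strand, with the run in capitals. The windows of TARDBP, TIA1, G3BP1 and G3BP2 lie in the 3′ UTR and those of MATR3 and TAF15 in the coding sequence, all within exons.
TARDBP, chr1:11023759-11023788, plus strand: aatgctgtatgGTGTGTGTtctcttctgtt
TIA1, chr2:70210158-70210187, minus strand: gcagtgattatTGTGTGTGagatttttttt
G3BP1, chr5:151806330-151806359, plus strand: taccaaatgtaTGTGTGTGTtgtgtatgtt
G3BP2, chr4:75644301-75644330, minus strand: gggagggagtccTGTGTGTttgtggggaga
MATR3, chr5:139321970-139321999, plus strand: tttcaggggagaTGTGTGaaggttgacctg
TAF15, chr17:35836177-35836206, plus strand: gacttggggaggGTGTGTctacagatcaag

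The TARDBP transcript held 5 such runs, all in its 3′ UTR, with a longest run of 8 bases. TIA1 also held 5 in its 3′ UTR, with a longest of 8. G3BP1, whose transcript is the longest at 10240 bases, held 9 runs with a longest of 9, 8 of them in the 3′ UTR. G3BP2 and MATR3 held 2 each, TAF15 held 1, and EWSR1, TIAL1 and ATXN2 held none. A run of this kind is common, since 69.1% of 19599 genes have one, and 90.8% of genes with a transcript within 20% of the length of TARDBP do. A run as long as that of TARDBP was present in 32.3% of those genes. Among genes of like length to ATXN2, 87.9% have a run, compared with 62.3% for EWSR1 and 46.9% for TIAL1. A run is a match of letters and not a measured binding site.

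Library totals ran from 18605745 to 21698339 counts, and 20.6 to 25.7% of counts fell on repeat families. The summed level of 16 noradrenergic neuroblastoma markers was 1387 to 1584 CPM (counts scaled to library size with TMM factors) with the TARDBP hairpin, 3217 to 3476 with control hairpin 1 and 2445 to 2554 with control hairpin 2, and TH, a defining marker, had too few reads to be tested. Of the 15 that could be tested, 12 were lower and 1 was higher with the TARDBP hairpin than in the mean of both controls. These are calls at an adjusted p below 0.05 in edgeR's quasi-likelihood test. Of all features tested, 24.3% were called lower and 23.9% higher in that comparison. Of the 9 fibroblast markers, whose sum was 290 to 333, 1498 to 1512 and 1888 to 2008 CPM, COL3A1 made up most of the control level, and 6 were lower and 2 higher with the TARDBP hairpin. Glial markers summed to at most 2.58 CPM and endothelial ones to at most 1.32 CPM in any library, and MOG, OLIG2, CDH5 and the immune markers AIF1 and CD3E had no count. Immune markers ranged from 6.02 to 19.3 CPM in sum, nearly all of it CD68, and epithelial markers from 10.8 to 133 CPM. Proliferation markers stood at 283 to 304, 365 to 436 and 1125 to 1207 CPM in sum. The part of these marker shifts in the values of the 9 genes was not tested. In such bulk libraries, fewer cells of a kind and less RNA per cell cannot be told apart.

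TARDBP, the target of the knockdown hairpin, stood at 18.9 and 24.0 CPM in the knockdown libraries, from 365 and 462 counts. Its level was 80.9 and 72.4 CPM in the control hairpin 1 libraries and 92.7 and 81.5 CPM in those of control hairpin 2. Both knockdown libraries were far below every control library. TARDBP fell by 1.93 on the log2 scale against the mean of both control hairpins (SE 0.126, adjusted p = 1.68e-05, edgeR's quasi-likelihood test with Benjamini-Hochberg adjustment over 17163 genes and repeat families), which left 26.2% of the control level (95% confidence interval 21.5 to 32.0%). Against control hairpin 1 alone 28.0% remained, and against control hairpin 2 alone 24.6%. The log2 change of TARDBP in control hairpin 2 against control hairpin 1 was 0.18 (adjusted p = 0.273). All changes that follow are on the log2 scale.

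**Figure D1:**
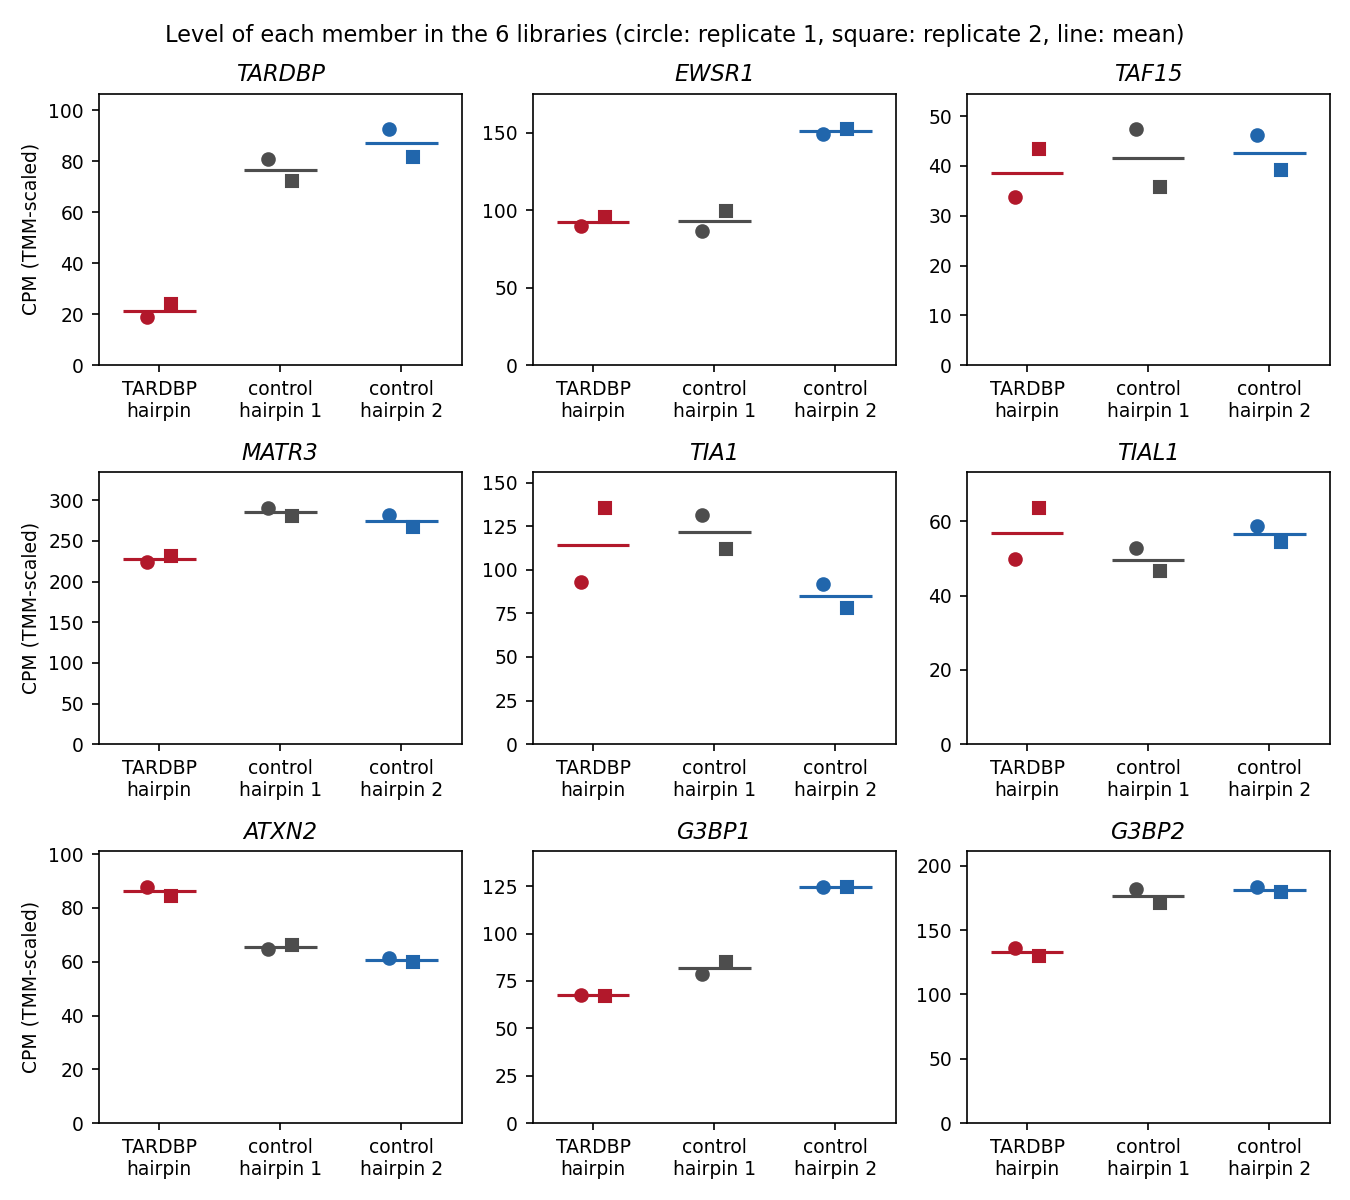
Level of each of the 9 genes in CPM (vertical axis from 0, scaled by TMM factors) in the 2 libraries of each hairpin, with a circle for replicate 1, a square for replicate 2 and a line at the mean. TARDBP, MATR3, G3BP1 and G3BP2 lie below all 4 control points in both knockdown libraries, ATXN2 lies above, and EWSR1, TAF15, TIA1 and TIAL1 overlap. The share of all features that lie apart in this way was not counted.

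Against the mean of both control hairpins, 6 of the 9 genes passed the test, at an adjusted p below 0.05. ATXN2 was the 1 that rose, and TARDBP, EWSR1, MATR3, G3BP1 and G3BP2 fell, while TAF15, TIA1 and TIAL1 did not pass. The background was high: 48.2% of all features tested were called, 23.9% higher and 24.3% lower. How many of all features have knockdown libraries apart from every control library was not counted. Statements below that groups lie apart or overlap therefore have no background beside them. The median log2 change was -0.30 over the 9 genes and -0.21 over the 8 without TARDBP, beside 0.04 over all features. With both controls treated as 1 group of 4 libraries, a fit in which the difference between them counts as spread, only TARDBP, ATXN2 and G3BP2 passed. In a test against a change of 1.5-fold, TARDBP was the only member called. The share of all features called in these alternative fits is not given here, so their counts have no background beside them.

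The counts varied with the control used. Against control hairpin 1, 1 member rose and 4 fell, where 42.9% of all features were called (21.1% higher, 21.8% lower). Against control hairpin 2, 1 rose and 5 fell, where 50.2% were called (24% higher, 26.2% lower). The control hairpins themselves differed in 3 members, EWSR1 and G3BP1 being higher and TIA1 lower with control hairpin 2, against 43.2% of all features (22.8% higher, 20.4% lower). The 3 comparisons share libraries, so their values are given side by side. Besides TARDBP itself, MATR3, G3BP1 and G3BP2 passed as lower and ATXN2 as higher against each control taken alone.

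**Figure D2:**
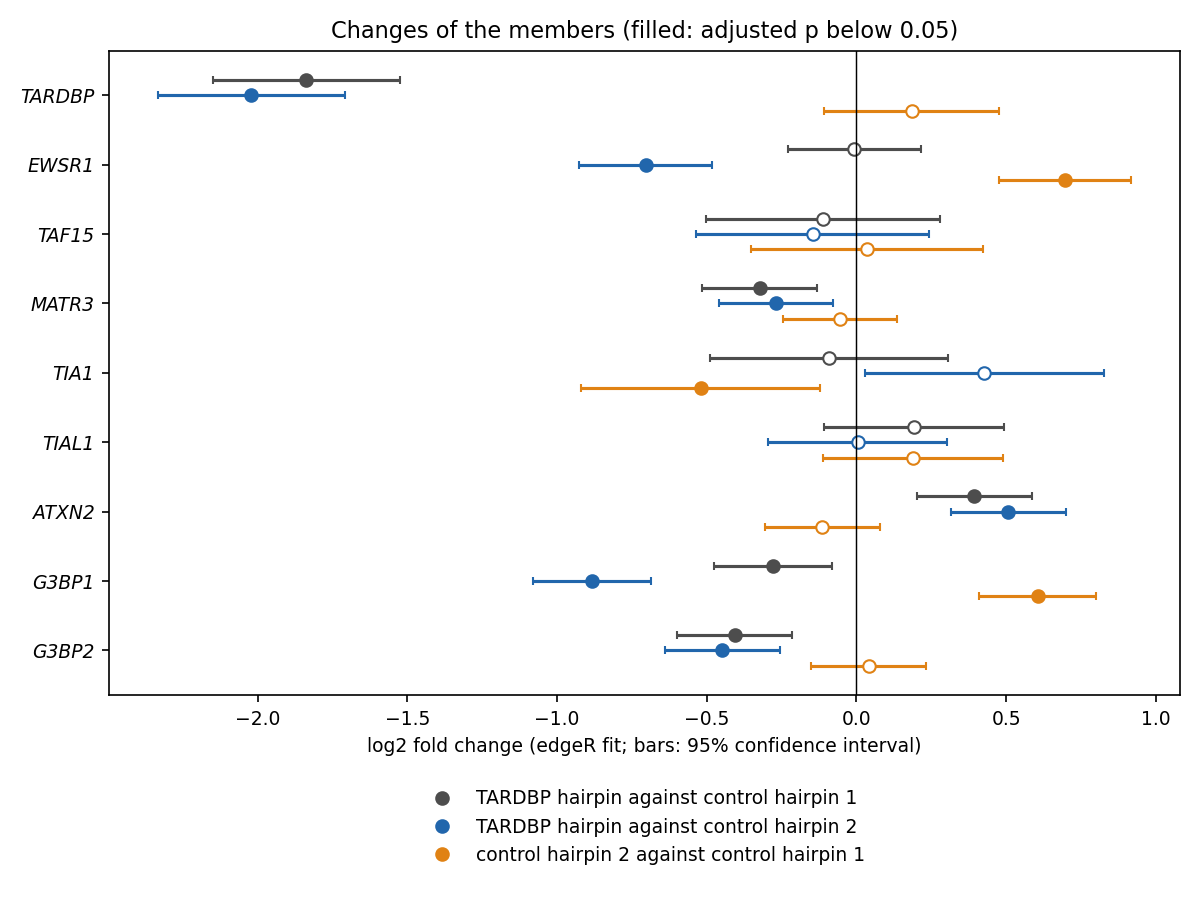
Log2 fold change of each gene (horizontal axis) with its 95% confidence interval from the edgeR fit, for the TARDBP hairpin against each control hairpin and for control hairpin 2 against control hairpin 1; filled points passed an adjusted p of 0.05. EWSR1 and G3BP1 differed between the controls (0.70 and 0.61) as well as between the knockdown and control hairpin 2 (-0.70 and -0.88).

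Of the FET genes, EWSR1 stood at 89.8 and 95.5 CPM in the knockdown, 86.5 and 99.7 CPM in the control hairpin 1 libraries, and 149 and 152 CPM in those of control hairpin 2. The knockdown and control hairpin 1 libraries overlapped, and the control hairpin 2 libraries lay apart above both. EWSR1 fell by 0.36 against the mean of both controls (SE 0.0850, adjusted p = 0.00897). The value differed by control: the log2 change was -0.70 against control hairpin 2 (adjusted p = 6.04e-04) and -0.01 against control hairpin 1 (adjusted p = 0.959, 95% confidence interval 85.3 to 116% of the control level). The call against both controls did not hold without knockdown replicate 1 (-0.32, adjusted p = 0.0691) or with the 4 controls as 1 group (adjusted p = 0.342).

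TAF15, which associates with the TFIID complex, differed little between groups. Its level was 33.7 and 43.3 CPM in the knockdown, 47.4 and 35.8 CPM in the control hairpin 1 libraries, and 46.1 and 39.1 CPM in those of control hairpin 2. All 3 groups overlapped, and the libraries within each group differed by more than the group means. Its log2 change against both controls was -0.13 (adjusted p = 0.4995), with an interval from 72.3 to 116% of the control level. In GENCODE v29 TAF15 overlaps AP2B1 and RASL10B on the same strand. AP2B1, an adaptor subunit of clathrin-coated vesicles, fell by 1.58 (adjusted p = 1.19e-05) at a mean of 212 CPM. The sources used here do not give how reads in overlaps were counted, and a share of such reads in the TAF15 counts was not tested.

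MATR3 stood at 224 and 232 CPM in the knockdown, 291 and 280 CPM in the control hairpin 1 libraries, and 282 and 268 CPM in those of control hairpin 2. Both knockdown libraries were below all 4 controls, and the control groups overlapped each other. MATR3 fell by 0.30 against the mean of both controls (SE 0.0731, adjusted p = 0.0104), to 81.5% of the control level (72.6 to 91.5%). The falls were 0.32 and 0.27 against control hairpins 1 and 2 (adjusted p = 0.0141 and 0.0269). The call against both controls did not hold without knockdown replicate 1 (adjusted p = 0.0789), without knockdown replicate 2 (0.0542), under upper-quartile scaling (-0.17, 0.0846) or with the 4 controls as 1 group (0.115), always with the same sign. Against control hairpins 1 and 2 alone it was called in 9 and 7 of 14 alternative analyses, and neither call held without knockdown replicate 1, without knockdown replicate 2, without replicate 1 of that control or under upper-quartile scaling (adjusted p 0.0543 to 0.263). The call against control hairpin 2 was also lost with gene rows only (0.1002).

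The TIA paralogues did not pass the test against both controls. TIA1 had 92.7 and 135 CPM in the knockdown, 131 and 112 CPM in the control hairpin 1 libraries, and 91.8 and 77.9 CPM in those of control hairpin 2. The knockdown libraries differed from each other more than those of either control, and they overlapped control hairpin 1 while lying above control hairpin 2. The log2 change was 0.17 against both controls (adjusted p = 0.384), -0.09 against control hairpin 1 (0.698) and 0.43 against control hairpin 2 (0.0715). Without knockdown replicate 1 the change against both controls was 0.41 (adjusted p = 0.0423), and without knockdown replicate 2 it was -0.13. TIA1 was lower with control hairpin 2 than with control hairpin 1, by a log2 change of -0.52 (adjusted p = 0.0412), a call lost without any 1 of the 4 control libraries (adjusted p 0.0518 to 0.2195).

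TIAL1 varied less. Its libraries had 49.8 and 63.6 CPM in the knockdown, 52.7 and 46.5 CPM in the control hairpin 1 libraries, and 58.8 and 54.4 CPM in those of control hairpin 2. The knockdown libraries spanned the range of all 4 controls but for the lowest, and control hairpin 1 lay just below control hairpin 2. Its log2 change was 0.10 against both controls (adjusted p = 0.502; 89.4 to 128% of the control level). In TIA1, TIAL1 and TAF15 alike, knockdown replicate 1 was lower than knockdown replicate 2, by more than the group means differed. In both control groups the order was the reverse for each of these genes, replicate 1 being the higher library. The replicate numbers are not known to pair libraries across groups, so no pairing or batch can be read from this order.

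ATXN2 was the only member called higher with the TARDBP hairpin, against either control or their mean. It stood at 87.8 and 84.4 CPM there, against 64.9 and 66.3 CPM in the control hairpin 1 libraries and 61.2 and 60.0 CPM in those of control hairpin 2. Both knockdown libraries were above every control library, and the 3 groups did not overlap. ATXN2 rose by 0.45 against the mean of both controls (SE 0.0716, adjusted p = 0.00124), to 137% of the control level (122 to 153%). Against control hairpin 1 the rise was 0.39 (adjusted p = 0.00591) and against control hairpin 2 it was 0.51 (adjusted p = 0.00155), while the controls differed by -0.11 (0.304). The rise against both controls was called in 14 of 15 alternative analyses, the exception being the test against a 1.5-fold change. SH2B3, an adaptor of cytokine receptor signalling that overlaps ATXN2 on the opposite strand, went the other way and fell by 0.99 (adjusted p = 2.66e-04), and ATXN2-AS stood at 0.908 CPM.

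The stress granule scaffolds both fell. G3BP1 stood at 67.8 and 67.2 CPM in the knockdown, 78.6 and 85.2 CPM in the control hairpin 1 libraries, and 125 and 124 CPM in those of control hairpin 2. The 3 groups were apart, in that order. G3BP1 fell by 0.58 against the mean of both controls (SE 0.0761, adjusted p = 4.62e-04), to 66.8% of the control level (59.2 to 75.4%). The fall was 0.88 against control hairpin 2 (adjusted p = 1.06e-04) and 0.28 against control hairpin 1 (adjusted p = 0.0296), and control hairpin 2 was itself 0.61 above control hairpin 1 (adjusted p = 9.26e-04). The call against control hairpin 1 did not hold without knockdown replicate 1 (adjusted p = 0.0943), without knockdown replicate 2 (0.110), without control hairpin 1 replicate 2 (0.135) or under upper-quartile scaling (0.129). With the 4 controls as 1 group, G3BP1 did not pass (adjusted p = 0.125).

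G3BP2 stood at 136 and 130 CPM in the knockdown, 182 and 171 CPM in the control hairpin 1 libraries, and 184 and 179 CPM in those of control hairpin 2. Both knockdown libraries were below all controls, and the control groups overlapped. G3BP2 fell by 0.43 against the mean of both controls (SE 0.0738, adjusted p = 0.00188), to 74.3% of the control level (66.1 to 83.6%). Against each control the fall was of like size, 0.41 and 0.45 (adjusted p = 0.00499 and 0.00282), and the controls differed by 0.04 (0.719). It was called in 14 of 15 alternative analyses, again except the test against a 1.5-fold change.

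Ratios between paralogues need no scaling between libraries, and 3 were compared between the knockdown and the 4 control libraries. With 2 libraries against 4 the exact permutation test used cannot go below 0.0667, so no ratio could pass at 0.05. The log2 ratio of G3BP1 to G3BP2 counts was -1.003 and -0.95 in the knockdown, -1.21 and -1.01 in the control hairpin 1 libraries, and -0.56 and -0.53 in those of control hairpin 2. Both knockdown values lay above those of control hairpin 1 and below those of control hairpin 2, and their mean was 0.15 below that of the controls (exact two-sided permutation test, p = 0.733). For TIA1 to TIAL1 the log2 ratio was 0.90 and 1.09 in the knockdown, apart from both controls and between them, at 1.31 and 1.27 for control hairpin 1 and 0.64 and 0.52 for control hairpin 2. The means of the knockdown and of all 4 controls were 0.99 and 0.94 (p = 0.867, exact permutation test). For EWSR1 to TAF15 it was 1.41 and 1.14 in the knockdown, 0.87 and 1.48 for control hairpin 1, and 1.70 and 1.96 for control hairpin 2, with means of 1.28 and 1.50 (p = 0.533, exact permutation test). All 3 have an adjusted p of 0.867 in this exact test, from which no absence of change can be read.

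The members' patterns over the 6 libraries were compared by the root mean square difference between log2 CPM values centred on each gene's mean, where a small value means a like pattern. Among the 36 pairs, MATR3 and G3BP2 were most alike (0.0817 log2 units), followed by EWSR1 and G3BP1 (0.120) and by TAF15 and TIAL1 (0.141). The paralogues G3BP1 and G3BP2 differed by 0.249. The least alike were TARDBP and ATXN2 (1.14). These values describe 6 libraries that share their depth and composition, and carry no test.

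**Figure D3:**
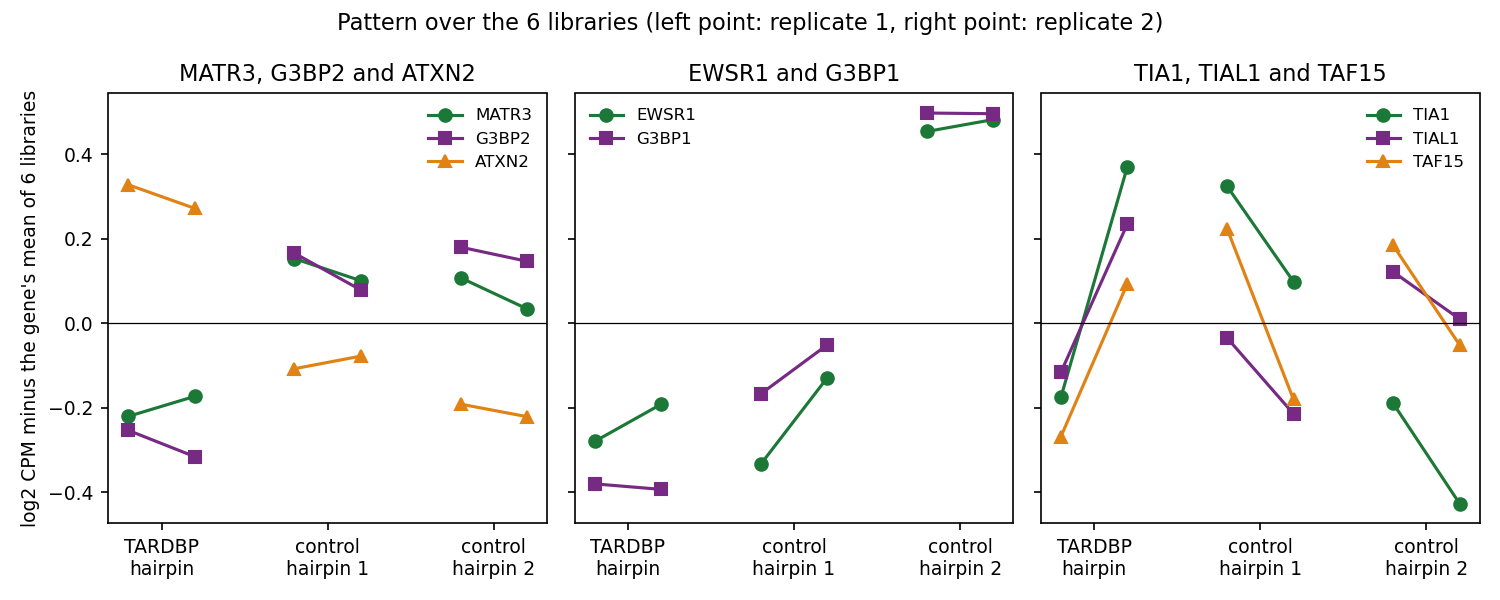
Log2 CPM of 8 members minus each gene's mean over 6 libraries (vertical axis), by hairpin; lines join the 2 libraries of a hairpin, whose order has no meaning, and the panels were chosen after values were seen. MATR3 and G3BP2 run together with ATXN2 as their reverse, EWSR1 and G3BP1 are high in control hairpin 2, and TIA1, TIAL1 and TAF15 vary within groups.

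EWSR1 and G3BP1 share the step up from control hairpin 1 to control hairpin 2. All 15 proliferation markers were called higher with control hairpin 2 than with control hairpin 1, beside 22.8% of all features. With the TARDBP hairpin 14 of 15 were called lower against the mean of both controls, beside 24.3% of all features. Against control hairpin 1 alone 10 of these markers were lower and 1 higher (median -0.76), beside 21.8% and 21.1% of all features. There EWSR1 had -0.01 and G3BP1 -0.28. Against control hairpin 2 alone all 15 markers were lower (median -2.70), beside 26.2% of all features, and EWSR1 and G3BP1 had -0.70 and -0.88. The part of the proliferation markers in the EWSR1 and G3BP1 values was not tested. Because the patterns of EWSR1 and G3BP1 are alike, the 250 bases before the start of each gene (RefSeq, GRCh38.p14, plus strand) are shown, with matches to CCAAT on either strand in capitals.
EWSR1, chr22:29268018-29268267: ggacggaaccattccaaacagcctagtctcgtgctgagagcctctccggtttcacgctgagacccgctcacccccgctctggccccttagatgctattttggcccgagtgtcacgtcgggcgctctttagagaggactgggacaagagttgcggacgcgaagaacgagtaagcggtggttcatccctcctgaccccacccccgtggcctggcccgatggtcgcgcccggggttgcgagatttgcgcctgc
G3BP1, chr5:151771704-151771953: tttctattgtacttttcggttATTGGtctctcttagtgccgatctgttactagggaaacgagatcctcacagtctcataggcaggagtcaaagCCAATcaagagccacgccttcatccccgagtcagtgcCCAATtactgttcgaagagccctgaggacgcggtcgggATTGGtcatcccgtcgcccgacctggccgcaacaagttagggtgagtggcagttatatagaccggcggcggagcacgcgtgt

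A search on both strands covered 7 motifs: the GC box as GGGCGG, the CCAAT box as CCAAT, the TATA box as TATAAA, the ETS core as CCGGAAG, the E-box as CACGTG, and the E2F forms TTTCCCGC or, with other letters, TTTGGCGC. The G3BP1 window held 4 CCAAT matches and no other, and the EWSR1 window held none of the 7. MATR3 and G3BP2, the most alike pair, have more than 1 start each and are not shown. The GC box was the only motif matched before a start of both, and it is found in 42.6% of 35116 promoters. CCAAT is found in 32.0% of 35116 promoters of this length. The G+C content was 54.0% for G3BP1 and 62.8% for EWSR1, with 18 and 22 CpG sites, where the medians of all promoters were 58.0% and 11. A promoter sequence was found for 7 of the 9 members, ATXN2 and TAF15 being the others. No match says only that these letters are not in this window.

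Among 10254 genes of at least moderate level, those with the pattern most like TARDBP were PSMA4, a proteasome subunit (0.147 log2 units), PEX26 of the peroxisome (0.148), SLC35B2, a Golgi nucleotide sulfate transporter (0.151), COMMD7 (0.152) and B4GALT5, a galactosyltransferase (0.154). They fell by 1.98, 1.70, 2.11, 1.97 and 1.97 against both controls, beside 1.93 for TARDBP. The 3 nearest to MATR3 were SPRED2 (0.0183), BAZ1B (0.0274) and PPP2R1B (0.0284), and those nearest to G3BP2 were RTL6 (0.0273), MAX (0.0354) and PTBP2 (0.0355). Nearest to ATXN2 were OPA1, which fuses inner mitochondrial membranes (0.0261), the heme exporter FLVCR1 (0.0275) and LRRC49 (0.0311). Among the genes nearest to G3BP1 were DNMT1, the maintenance DNA methyltransferase (0.0399), and the nucleoporin NUP160 (0.0464), and EWSR1 was nearest to PPAN-P2RY11 (0.0472), the nucleoporin NUP93 (0.0523) and RBMX (0.0528). For the members that did not pass, the nearest were IFT20 (0.0658), AGO4 (0.0742) and RBM19 (0.0743) for TAF15, ANKRD10 (0.0473), IPW (0.0538) and ZNF767P (0.0550) for TIA1, and XPO1 (0.0331), ZNF239 (0.0398) and IRAK4 (0.0439) for TIAL1. These distances carry no test and say nothing of shared function.

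The other genes of the processes in which the 9 proteins work were counted in 7 lists with 150 tested genes. Of these, 83 passed against the mean of both controls, 21 higher and 62 lower, or 55.3% (14% higher and 41.3% lower) beside 48.2% of all features (23.9% higher and 24.3% lower). The median log2 change was -0.14 over the lists and 0.04 over all features. With the 4 controls as 1 group 28 passed, 6 higher and 22 lower, a count without the share of all features in that fit beside it. Among the genes named below, the calls of EIF4G1, DCP2, EIF2S3, EIF2AK2, EIF2S1, PTBP3, ZFR, TNPO1, HSPB8, ULK1, PRMT3, TAF1, TAF7 and SNRNP70 were lost in that fit. The lists were chosen with earlier results of these data known. Against control hairpin 1 alone, 21.1% of all features were higher and 21.8% lower, and against control hairpin 2, 24% and 26.2%. Between the controls, 22.8% were higher and 20.4% lower with control hairpin 2. These shares are the background of the splits given below for each list.

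**Figure D4:**
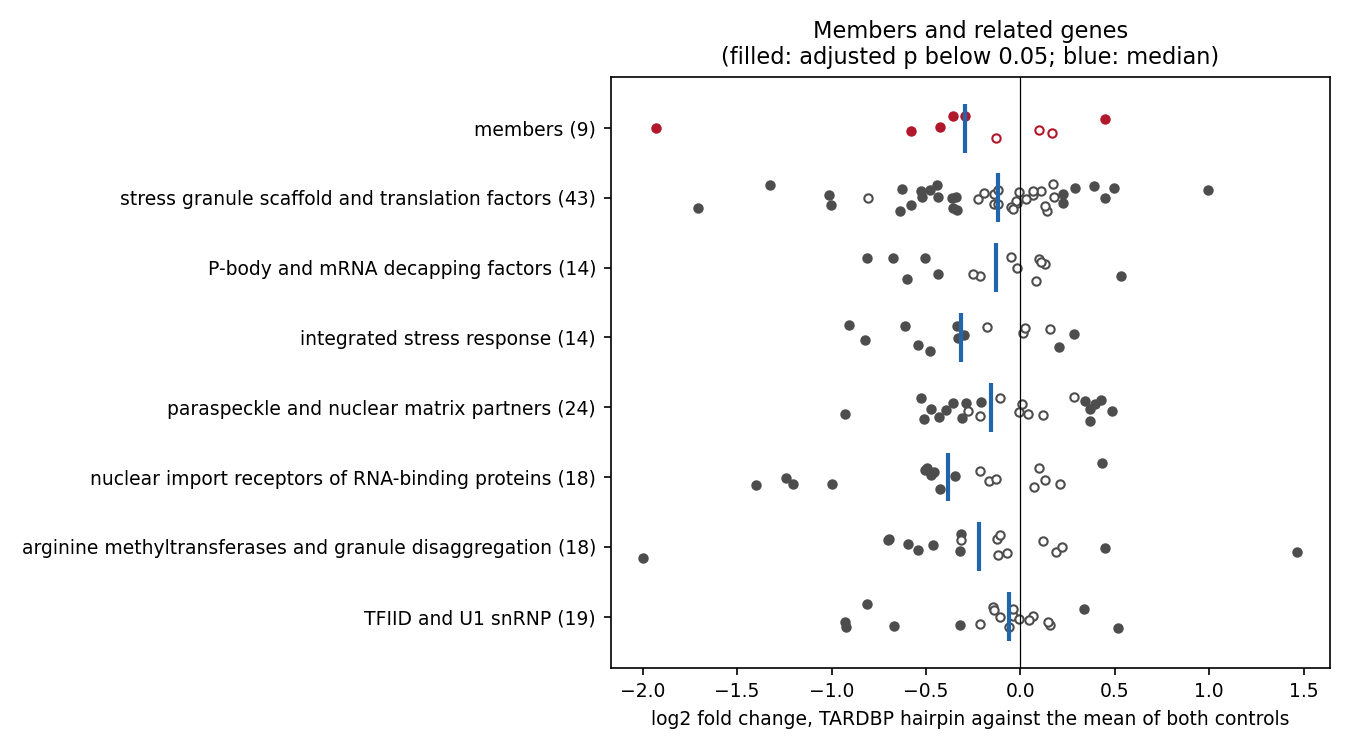
Log2 fold change with the TARDBP hairpin against the mean of both controls (horizontal axis) for the 9 members and for the tested genes of 7 lists, with the number tested in brackets, filled points for an adjusted p below 0.05, a blue line at the median and vertical scatter only to separate points. The list medians run from -0.38 for nuclear import to -0.06 for TFIID and U1 snRNP.

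Of 43 tested stress granule scaffolds and translation factors, 7 rose and 16 fell (median -0.12), beside 23.9% and 24.3% of all features. PRRC2B fell by 1.33 and EIF4G1, the scaffold of the cap-binding complex, by 1.00, while NUFIP2, a ribonucleoprotein found in stress granules, rose by 1.00. EIF4G1 fell by 0.52 against control hairpin 1 and by 1.48 against control hairpin 2, and was itself 0.96 higher with control hairpin 2 than with control hairpin 1 (adjusted p = 1.53e-04). The split varied with the control, with 9 higher and 12 lower against control hairpin 1, 5 and 19 against control hairpin 2, and 17 higher and 4 lower in control hairpin 2 against control hairpin 1.

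Among 14 P-body and decapping factors 1 rose and 5 fell (median -0.13), beside 23.9% and 24.3% of all features. The split was 1 higher and 7 lower against control hairpin 1 and 4 higher and 5 lower against control hairpin 2, and 8 were lower with control hairpin 2 than with control hairpin 1. The decapping scaffold EDC4 fell by 0.81, the nonsense-mediated decay helicase UPF1 by 0.68, the decapping enzyme DCP2 by 0.60 and EDC3 by 0.50, and DCP1B rose by 0.53. DCP2 was lower against control hairpin 1 (-1.13, adjusted p = 8.18e-05) and had a log2 change of -0.06 against control hairpin 2 (adjusted p = 0.641).

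Of 14 genes of the integrated stress response, the pathway that stalls translation through eIF2, 2 rose and 8 fell (median -0.31). The shares of all features were 23.9% and 24.3%. The eIF2 kinases EIF2AK4 (GCN2) and EIF2AK1 (HRI) fell by 0.91 and 0.54, and EIF2B1, a subunit of the eIF2 exchange factor, by 0.82. EIF2S3 fell by 0.34, a call that did not hold without knockdown replicate 2 (adjusted p = 0.0713). The 2 that rose were the kinase EIF2AK2 (PKR), by 0.28, and EIF2S1 (eIF2 alpha), by 0.21 (adjusted p = 0.04999). The EIF2AK2 call was lost without knockdown replicate 2, control hairpin 1 replicate 1 or either control hairpin 2 library, the highest adjusted p being 0.169, and that of EIF2S1 without any 1 of the 6 (up to 0.261). EIF2AK2 and EIF2S1 rose by 0.61 and 0.55 against control hairpin 1 and had changes of -0.04 and -0.14 against control hairpin 2 (adjusted p = 0.738 and 0.210). The list had 2 higher and 4 lower against control hairpin 1, and 8 lower against control hairpin 2. Without knockdown replicate 2, 4 genes of the list passed instead of 10.

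Paraspeckle and nuclear matrix partners, among them the proteins that bind MATR3, split into 6 higher and 10 lower of 24 (median -0.16). The shares of all features were 23.9% and 24.3%. NONO, a core paraspeckle protein, fell by 0.93 and the cleavage factor subunit NUDT21 by 0.51. PTBP3, a splicing repressor related to PTBP1, rose by 0.48 and the zinc finger protein ZFR by 0.40. ZFR rose against control hairpin 1 (0.73, adjusted p = 2.35e-04), and its value against control hairpin 2 was 0.06 (0.570). The list had 6 higher and 4 lower against control hairpin 1, and 5 and 11 against control hairpin 2.

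Nuclear import receptors carry TDP-43 and FET proteins into the nucleus and keep them soluble. Their list also holds RAN, RANBP1, RANGAP1 and NUTF2, which are not receptors. It had 1 of 18 genes higher and 10 lower, RAN, RANBP1 and RANGAP1 among the lower, with a median of -0.38. RAN and RANGAP1 did not pass against control hairpin 1, where their changes were 0.0857 and -0.13 (adjusted p = 0.551 and 0.367). Both passed as lower against control hairpin 2, and both were higher with control hairpin 2 than with control hairpin 1 (1.09 and 0.70). Against control hairpin 1 the split was 2 higher and 7 lower (median -0.15), and against control hairpin 2 it was 2 and 11 (median -0.40). KPNB1 (importin beta) went from 243 ± 8.10 and 347 ± 6.29 CPM to 110 ± 0.239 CPM (SD, n = 2 each), a fall of 1.40 (adjusted p = 9.10e-06). KPNA3 fell by 1.202, RANBP1, a Ran regulator, by 1.24, and TNPO1 (transportin 1), the receptor of FET proteins, by 0.50 (0.32 and 0.68 against control hairpins 1 and 2), and KPNA1 rose by 0.43. The list also differed between the controls, with 10 higher and 2 lower in control hairpin 2.

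Among 18 arginine methyltransferases and granule disaggregation factors 2 rose and 8 fell (median -0.22), beside 23.9% and 24.3% of all features. PRMT6, an arginine methyltransferase, fell by 2.00 to 9.56 ± 0.962 CPM from 38.1 ± 2.70 and 38.2 ± 0.834 CPM (SD, n = 2 each; adjusted p = 1.02e-05), beside 1.93 for TARDBP. The chaperone DNAJB6 fell by 0.70 and the autophagy kinase ULK1 by 0.59 (0.83 and 0.35 against control hairpins 1 and 2). HSPB8, a small heat shock protein that keeps granules dynamic, rose by 1.46 against the mean of both controls, but its level of 27.7 CPM compares with 4.17 CPM in control hairpin 1 and 24.1 CPM in control hairpin 2, and its change against the latter was 0.20 (adjusted p = 0.201). The list had 3 higher and 5 lower against control hairpin 1, and 1 and 8 against control hairpin 2. PRMT3 rose by 0.45, a call that did not hold without knockdown replicate 2 (adjusted p = 0.0794), and without that library 6 genes of the list passed instead of 10.

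Of 19 genes of TFIID and the U1 snRNP, the transcription and splicing complexes that FET proteins contact, 2 rose and 5 fell (median -0.06). The shares of all features were 23.9% and 24.3%. The TFIID subunits TAF11, TAF13, TAF9B and TAF9 fell by 0.93, 0.92, 0.81 and 0.67, and SNRNP70, the U1 70K protein, by 0.32. TAF1 rose by 0.52 and TAF7 by 0.33. None of TAF1, TAF7 and SNRNP70 passed against control hairpin 1, where their changes were 0.25, 0.28 and -0.10 (adjusted p = 0.180, 0.0553 and 0.470), beside 0.79, 0.39 and -0.54 against control hairpin 2. The list had 1 higher and 4 lower against control hairpin 1, and 2 and 6 against control hairpin 2. The calls of TAF1 and TAF7 did not hold without knockdown replicate 2 (adjusted p = 0.0727 and 0.103), that of TAF7 also without control hairpin 2 replicate 2, and that of SNRNP70 without knockdown replicate 1, control hairpin 1 replicate 2 or control hairpin 2 replicate 1 (up to 0.159) or under upper-quartile scaling.

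Other genes lie over some members in GENCODE v29 and have rows of their own. RHBDD3 overlaps EWSR1, SIL1 overlaps MATR3 and ATOX1 overlaps G3BP1, each on the opposite strand, and their log2 changes against both controls were 0.17, -0.16 and 0.08, none of them called. C2orf42, on the strand of TIA1, had 0.26 (adjusted p = 0.143), and SNHG4, within MATR3, had 0.03 (adjusted p = 0.894). The processed pseudogenes of TARDBP have no rows of their own here, and the sources used here do not say how reads matching both were counted. Of the 12 overlapping genes that could be tested, AP2B1, SH2B3 and RASL10B, a Ras-like gene with a log2 change of -0.74 (adjusted p = 0.00868), were the ones that passed.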

How the data were processed

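The deposited values were counts, raw whole numbers per gene symbol and per repeat family, with 1 file for each of the 6 libraries, per the file headers. Per the labels' protocols, RNA was extracted with Trizol, depleted of ribosomal RNA with Ribo-Zero Gold and made into strand-specific libraries. Per the submitters' processing notes, the tools were bcl2fastq and STAR 2.5.2b and the genome build was hg19. How reads were counted (tool, annotation, strand, reads with more than 1 match) is not given in sources used here, so overlapping genes and near-identical copies may share reads.

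The 28953 genes and repeat families entered 1 analysis (edgeR 4.0.16 in R 4.3.3). Of these, 17163 passed filterByExpr by group (minimum count 10, minimum total 15) and 5025 had no count. One quasi-likelihood model with 3 groups and TMM scaling was fitted (3 residual and 5.41 prior degrees of freedom, biological coefficient of variation 10.5%), with Benjamini-Hochberg adjustment over all features tested and a call at an adjusted p below 0.05. "Rose" and "fell" mark calls. Each standard error is the size of the log2 fold change divided by the square root of F. Simulated data were used to test the code. Levels are not compared between genes, since the lengths counted are not known.

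The members and lists were chosen with earlier results of these data known, and no list was tested as a set. Of each list, the text names up to 4 called genes with the lowest p and all called genes of a direction with 5 or fewer, and of genes alike in pattern, the 5 nearest to TARDBP and the 3 nearest to each other member (mean log2 CPM of at least 3, prior count 2, small RNA and uncharacterised symbols left out). Results for some genes that these rules name do not appear here. Overlapping genes were named after their values were seen. Ratios used counts plus 0.5. Alternatives were other scalings, DESeq2 1.42.0, no filter, gene rows only, a replicate block, each library left out, a test against 1.5-fold and the controls as 1 group.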

Additional observations from a re-analysis of the deposited data

How the results depend on the processing

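Of 513 alternative values for the 9 genes, 440 kept their direction and side of the threshold, 43 lost a call, 4 gained one and 26 changed sign, none of them a called value. The count of members called against the mean of both controls was 6, and became 1 in the test against a 1.5-fold change and 3 with the 4 controls as 1 group, a fit that leaves the difference between controls in the spread. Without single libraries the members called changed. Without knockdown replicate 1, EWSR1 and MATR3 lost their calls and TIA1 gained one (log2 changes -0.32, -0.28 and 0.41). Against control hairpin 1 the count was 5, and became 3 under upper-quartile scaling, 1 in the 1.5-fold test and 3 to 5 without single libraries. Against control hairpin 2 it was 6, with 2 in the 1.5-fold test (TARDBP and G3BP1). Without knockdown replicate 1, MATR3 lost that call and TIA1 gained one (log2 changes -0.25 and 0.67). Between the controls the count was 3, with 0 in edgeR's 1.5-fold test (1 at an unadjusted p below 0.05) and 3 in DESeq2's test of no change. The TIA1 call between the controls was lost without any 1 of the 4 control libraries. The 83 called genes of the 7 lists became 16 in the 1.5-fold test, 28 with the 4 controls as 1 group and 62 to 78 without single libraries. With 1 library left in a group, that library is assumed to vary like the others. Upper-quartile scaling moved the median of all features from 0.04 to 0.17 against both controls. The shares of all features called under the alternatives are not given here, so these counts stand without a background.

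Changes of sign were of values that had no call. TIAL1 against control hairpin 2 went from 0.00367 to -0.0117 with relative log expression factors, -0.0307 with library totals, -0.0209 in DESeq2 and -0.00275 without a filter. EWSR1 against control hairpin 1 (-0.00745) became 0.0928 under upper-quartile scaling and 0.00620 with gene rows only. Upper-quartile scaling also gave 0.00677 for TIA1 against control hairpin 1, and -0.0107 for TAF15 and -0.00540 for G3BP2 between the controls, and library totals gave -1.13e-04 for TAF15 there. Without single libraries, TAF15 ranged from -0.32 to 0.0376 against both controls, -0.31 to 0.10 against control hairpin 1, -0.34 to 0.0211 against control hairpin 2 and -0.16 to 0.25 between the controls. TIA1 ranged from -0.13 to 0.41 against both controls and -0.39 to 0.15 against control hairpin 1, and TIAL1 from -0.0898 to 0.26 against both controls and -0.18 to 0.17 against control hairpin 2. EWSR1 ranged from -0.11 to 0.0894 against control hairpin 1, G3BP2 from -0.00655 to 0.0821 between the controls, and the difference in the log2 ratio of TIA1 to TIAL1 from -0.082 to 0.18.

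TIA1 against control hairpin 2, not called in the main analysis, passed under upper-quartile scaling (0.57, adjusted p = 0.0233), with gene rows only (0.47, 0.0495) and without knockdown replicate 1 (0.67, 0.00883). Deviations of same-numbered libraries correlated at -0.23 between the knockdown and control hairpin 1. The value was -0.25 between the knockdown and control hairpin 2, and 0.23 between the controls. With 2 libraries per group, renumbering a group only turns the sign, so these values cannot show whether libraries are paired. The replicate block uses the numbers as given, and other pairings were not tested. With a replicate block, 6 members were called against both controls, 4 against control hairpin 1 (G3BP1 adjusted p = 0.0535), 5 against control hairpin 2 (MATR3 0.0540) and 2 between the controls (TIA1 0.0632), and 78 genes of the lists. The cause of these shifts was not tested. At 365 counts or more per library and gene, depth allowed all 9 genes to be tested.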
